A study of Mus musculus with 6 samples.

Results

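The voltage-gated sodium and calcium channel genes were taken from the brainstem RNA sequencing by symbol, as the genes named Scn followed by a number and a or b, and the genes whose symbols start with Cacna1, Cacna2d, Cacnb or Cacng. The deposited table of 18058 genes held 40 such symbols, of which 36 had a mean of at least 0.1 CPM (counts per 1e6 reads, the unit of the deposited values) and were tested, among 16762 tested genes in all. These 36 were 12 sodium and 24 calcium channel genes. Scn4a, Scn10a, Cacng1 and Cacng6 had means of 0.0701, 0.0334, 0.0548 and 0.0612 CPM and were not tested. In the study, total RNA from snap-frozen brainstem of 1-month-old mice was sequenced for 3 wild type (WT) C57BL/6J mice and 3 Rag1-/- mice, the strain B6.129S7-Rag1tm1Mom/J, 1 library from each of 3 independent mice per genotype. Rag1 encodes part of the enzyme that cuts and joins antigen receptor gene segments, the allele is carried in every cell of the animal, and such mice lack mature T and B cells. No treatment is given for either group in the labels.

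Voltage-gated sodium channels open on depolarization and carry the rising phase of the action potential. Each has a pore-forming alpha subunit, which alone makes a working channel, and smaller beta subunits that set its gating and its placement in the membrane. Voltage-gated calcium channels turn depolarization into calcium entry, which drives transmitter release at nerve terminals, pacemaking, dendritic spikes and calcium-dependent transcription. Their pore is the alpha1 subunit (L-type, P/Q-, N- and R-type, and T-type), and the alpha2delta and beta subunits bring it to the membrane and tune it. The gamma genes were named for a subunit of the skeletal muscle channel, but several of their products in brain are auxiliary subunits of AMPA-type glutamate receptors (TARPs).

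Estimated depth was between 31500000 and 46400000 reads per library, at which 3 reads equal 0.0647 to 0.0953 CPM; this covers counting error only. Transcripts of Rag1 itself went against the label, at 0.236, 0.388 and 0.115 CPM in WT replicates 1 to 3 against 2.60, 4.02 and 2.90 CPM in the labelled Rag1-/- libraries, so they are called by that label here, on which every direction below rests. The deposited value covers the whole gene and does not show from which part of it the reads came. Neuronal markers were present in every library, with the summed level of 10 genes between 6118 and 6950 CPM, and a median log2 fold change of 0.011. WT replicate 3 stood apart, with 6 cerebellar granule and Purkinje cell markers summing to 399 CPM against 68.4 to 164 CPM in the other libraries, and 6 pituitary markers summing to 656 CPM against 2.69 to 57.3 CPM. WT replicates 1 and 2 held Xist at 172 and 177 CPM, whereas WT replicate 3 held 2.93 CPM and the labelled Rag1-/- libraries 0.462 to 0.738 CPM. High Xist was thus found in WT libraries only, and a fit with a term for Xist has WT replicate 3 as its only WT library with low Xist. All 7 oligodendrocyte markers were higher in the libraries labelled Rag1-/- at an unadjusted p of at most 0.05, none with an adjusted p under 0.05, with a summed level of 19622, 22793 and 20725 CPM in WT and 26655, 25409 and 25352 CPM in the labelled Rag1-/- libraries. Values without WT replicate 3, and some from a fit with a term for Xist, are given beside the results; the part of the marker differences in the results below was not otherwise tested.

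Most channel genes lay slightly lower in the libraries labelled Rag1-/-, and no single channel gene passed the adjusted test. Of the 36 genes, 28 (77.8%) had a log2 fold change below 0, as did 67.7% of all tested genes. The median log2 fold change, Rag1-/- minus WT on the log2(CPM + 0.1) scale, was -0.107 for the channel genes and -0.051 for all tested genes, and it was -0.061 and -0.006 with median-of-ratios scaling and -0.071 and 0.002 with quantile scaling. Single values ran from -0.641 (Scn7a) to 0.174 (Cacna1f). The smallest adjusted p among them was 0.340 (limma-trend with Benjamini-Hochberg adjustment over all 16762 genes), so 0 of 36 had an adjusted p under 0.05, a threshold that 8 genes in all passed (0.0477%). At an unadjusted p of at most 0.05, 8 channel genes (22.2%) were lower, against 9.29% of all tested genes, and 1 (2.78%) was higher, against 2.27%. Both shares depended on the scaling. With median-of-ratios and with quantile scaling 6 of the 36 channel genes were lower at that p, while the share of all genes fell from 9.29% to 4.11% and 3.82%. All 3 libraries labelled Rag1-/- lay below all 3 WT libraries for 3 channel genes (8.33%), a smaller share than the 14.4% of all tested genes, and above them for 1 (2.78%, against 3.98%). WT replicate 3 was the highest library for 19 of the 36 genes and Rag1-/- replicate 1 the lowest for 17. Without WT replicate 3, 4 channel genes were lower at an unadjusted p of at most 0.05, against 9.31% of all genes. Leaving out Rag1-/- replicate 1 also gave 4, against 5.18%, and leaving out WT replicate 2 gave 16, against 9.73%. A fit without the trend in limma gave 4, against 7.67%. In bulk tissue, fewer cells of a type and less RNA per cell cannot be told apart.

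**Figure D1:**
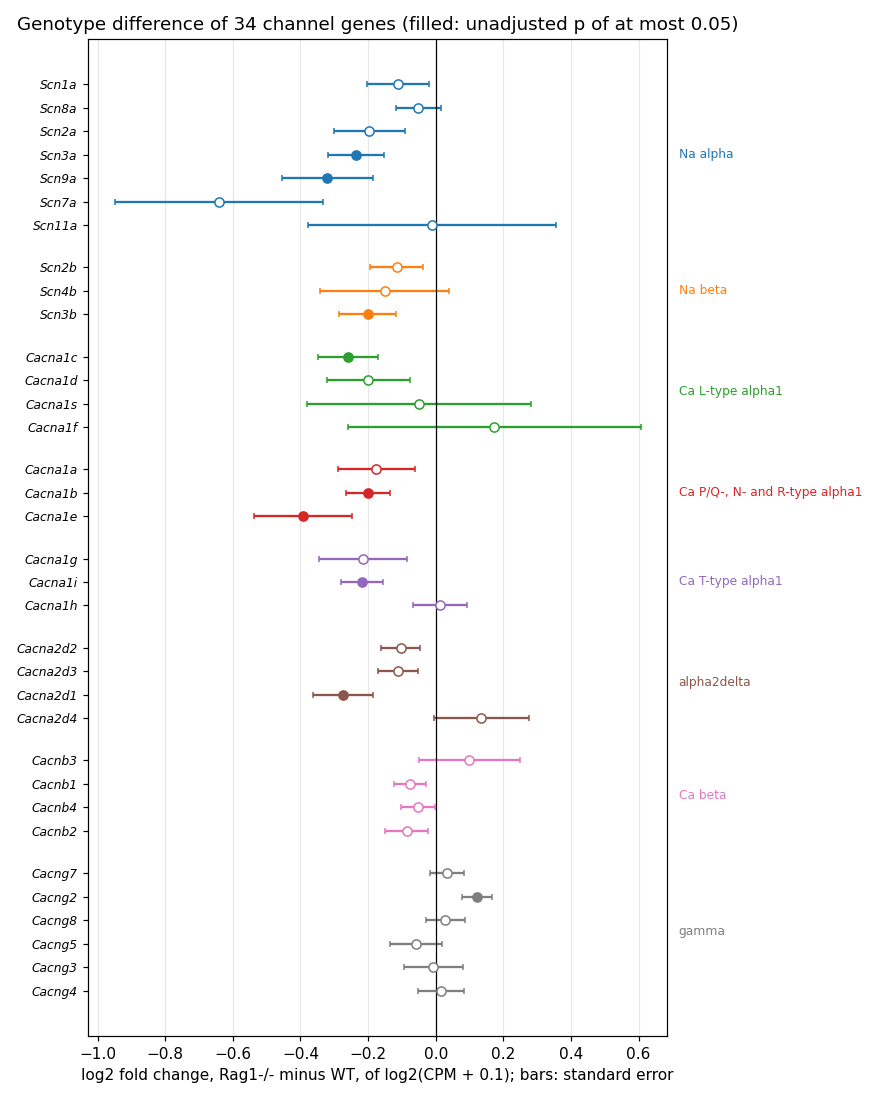
Log2 fold change of 34 tested channel genes, libraries labelled Rag1-/- minus WT on the log2(CPM + 0.1) scale (x axis), with standard errors as bars, by subunit class. Filled points have a limma-trend p of at most 0.05 before adjustment; 26 points lie below 0, and the gamma genes lie between -0.059 and 0.122.

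Transcript length moved with this difference over all genes. Lengths are those of the longest coding transcript of each gene in GENCODE M21, found for 15492 tested genes (92.4%) and for every channel gene. Among tested genes with transcripts of up to 2000 bases the median log2 fold change was -0.006, and among the 872 with transcripts over 8000 bases it was -0.113, with 29.7% lower at an unadjusted p of at most 0.05. For the latter genes Rag1-/- replicate 1 stood apart, with a median deviation from the gene means of -0.108 on the log2 scale, against -0.028 and -0.030 in Rag1-/- replicates 2 and 3 and 0.051 to 0.066 in WT. Sodium and calcium channel alpha subunits are large proteins with long messages, and 14 of the 36 genes lay in the longest range, where their median was -0.208 and 6 were lower at that p. The 10 channel genes with transcripts of up to 4000 bases included none at that p in either direction, in ranges where 4.55% and 7.60% of all genes were lower. After a correction for transcript length in each library, chosen after seeing the data, 2 channel genes (Cacna2d1 and Cacng2) had an unadjusted p of at most 0.05 in place of 9, and the median of the 36 was -0.033. In the same fit the median of all genes was -0.006 and 3.71% of them were lower at that p, with 1 of the 36 channel genes lower. The correction moved Cacng2 from 0.12 to 0.19, Cacng7 from 0.03 to 0.06, Cacna2d1 from -0.27 to -0.19, Scn3a from -0.24 to -0.13, Cacna1c from -0.26 to -0.14, Cacna1b from -0.20 to -0.10, Cacna1i from -0.22 to -0.11, Cacna1e from -0.39 to -0.26 and Scn1a from -0.11 to -0.02.

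**Figure D2:**
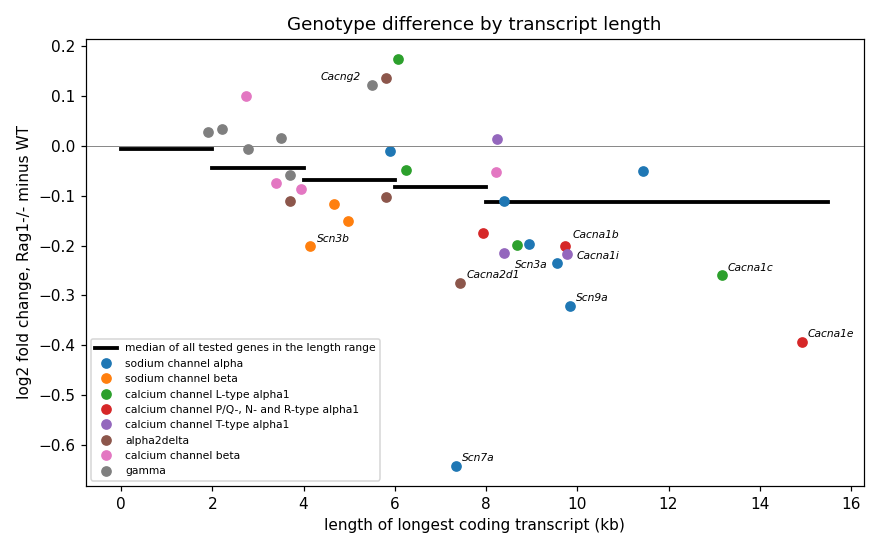
Log2 fold change, libraries labelled Rag1-/- minus WT (y axis), against the length of the longest coding transcript in kb (x axis) for 34 channel genes, coloured by subunit class. Black lines give the median of all tested genes in 5 length ranges, the last one open at its upper end; it goes from -0.006 in the shortest to -0.113 in the longest range, and among the channel genes drawn with transcripts over 8000 bases Cacna1h alone lies above 0.

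Levels were compared between genes as CPM per kb of that transcript. Among sodium channel alpha subunits, Scn1a (Nav1.1) was highest at 29.3 CPM per kb over the 6 libraries (26.3 to 34.0), followed by Scn8a (Nav1.6) at 24.0 (21.7 to 25.8) and Scn2a (Nav1.2) at 15.8 (13.0 to 18.0), and the ranges of these 3 genes did not overlap. Nav1.1 is known from fast-spiking inhibitory neurons, and Nav1.6 is the main alpha subunit of mature nodes of Ranvier. Scn3a (Nav1.3), which is most abundant in the immature nervous system, was at 2.91 CPM per kb, and Scn9a and Scn7a were at 0.743 and 0.451. Scn9a encodes a channel best known from peripheral sensory neurons, and Scn7a a channel gated by extracellular sodium. Scn11a, a channel of pain-sensing neurons, was at 0.0243 CPM per kb. Scn1a made up 39.6% ± 3.73 (SD, n = 3) of the summed per-kb level of alpha subunits in WT and 39.8% ± 1.63 (SD, n = 3) in the libraries labelled Rag1-/-, while Scn8a made up 31.7% ± 0.732 and 33.3% ± 1.89, so the make-up of the class differed by less than the spread between replicates for Scn1a and overlapped between the groups for Scn8a.

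**Figure D3:**
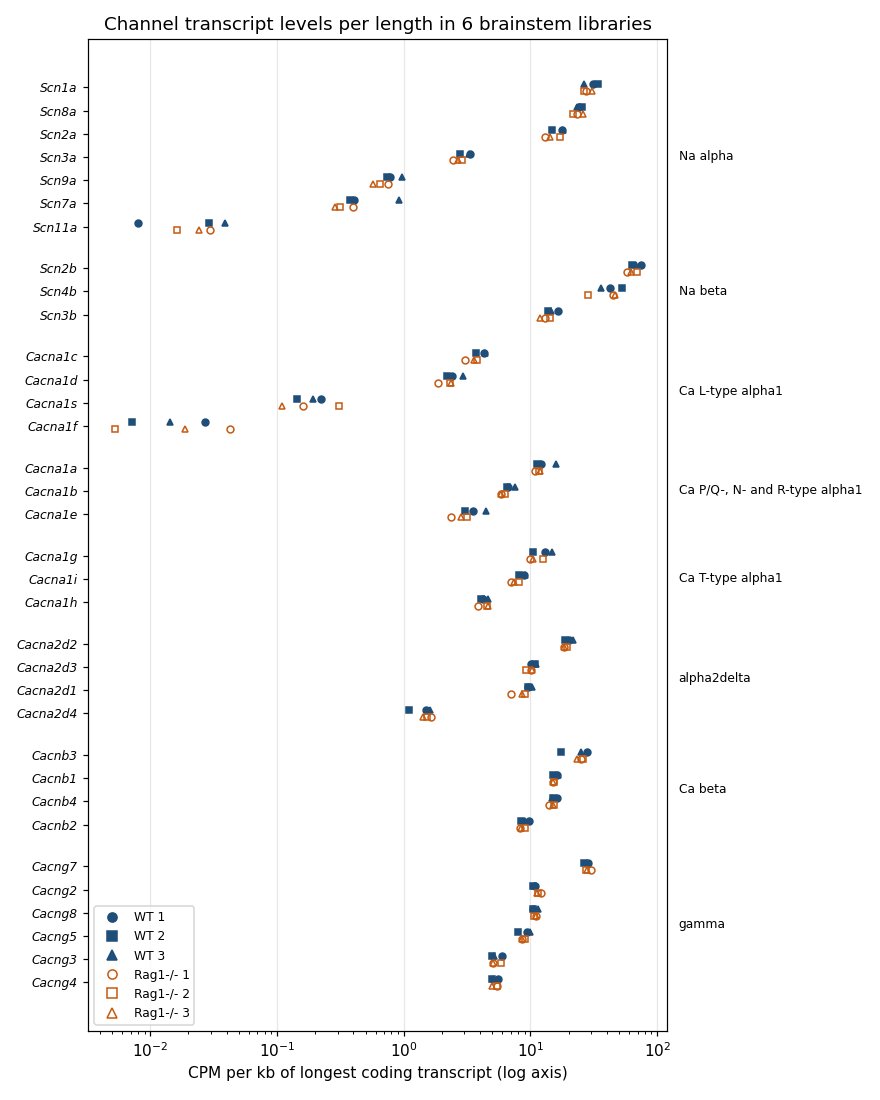
Level of 34 tested channel genes in CPM per kb of its longest coding transcript (x axis, log scale) in 3 WT libraries (filled) and 3 libraries labelled Rag1-/- (open), by subunit class. Scn2b stands highest of those drawn at 66.0 CPM per kb over the 6 libraries, and Scn11a and Cacna1f lie near the detection floor.

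All 8 tested sodium channel alpha genes had a log2 fold change below 0 (7 with either other scaling), with a median of -0.216, and 2 of them, Scn3a and Scn9a, had an unadjusted p of at most 0.05. Of all tested genes 67.7% lay below 0 and 9.29% were lower at that p, and of those with transcripts over 8000 bases 88.6% and 29.7%. Scn7a (7338 bases) and Scn11a (5899 bases) have shorter transcripts. With either other scaling 1 of the 8 alpha genes had such a p. After the transcript length correction 6 of the 8 lay below 0, with a median of -0.116, and 0 had such a p. Their summed level was 743, 752 and 703 CPM in WT replicates 1 to 3 and 651, 662 and 714 CPM in the labelled Rag1-/- libraries, a ratio of means of 0.922, with the highest of the latter above the lowest WT value. Scn3a (chromosome 2, 65457118 to 65567492, minus strand, mm10) was at 32.1, 26.8 and 31.3 CPM in WT against 23.6, 27.4 and 25.4 CPM in the labelled Rag1-/- libraries. The groups overlapped through WT replicate 2 alone, which lay below 1 library labelled Rag1-/-. Its log2 fold change was -0.24 ± 0.08 (SE), with an adjusted p of 0.373 by limma-trend and an exact two-sided permutation p of 0.2, and it was -0.20 without WT replicate 3. The unadjusted p of Scn3a was over 0.05 without WT replicate 1 or 3 and without Rag1-/- replicate 1 or 3. Scn9a (chromosome 2, 66480081 to 66634962, minus strand) was at 7.69, 7.20 and 9.52 CPM in WT against 7.45, 6.42 and 5.62 CPM. WT replicate 3 was highest, and replicate 1 of the labelled Rag1-/- libraries lay among the WT values. For Scn9a the log2 fold change was -0.32 ± 0.14 (SE; adjusted p = 0.425 by limma-trend, exact permutation p = 0.2), and it was -0.20 without WT replicate 3. Its unadjusted p was at most 0.05 without WT replicate 2 or Rag1-/- replicate 1, and over 0.05 when any other library was left out, with the other scalings, with no filter on low values, without the trend in limma and with the replicate block.

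Scn1a (chromosome 2, 66270782 to 66440837, minus strand), the highest of the class, was at 261, 285 and 221 CPM in WT against 232, 221 and 255 CPM in the labelled Rag1-/- libraries. WT replicates 1 and 2 lay above all the other libraries, and WT replicate 3 was among the lowest. The log2 fold change was -0.11 ± 0.09 (SE; adjusted p = 0.656 by limma-trend, exact permutation p = 0.5), -0.03 without WT replicate 2, -0.21 without WT replicate 3 and 0.09 in a fit with a term for Xist. Scn1a, Scn2a, Scn3a, Scn7a and Scn9a all lie on chromosome 2 between 65457118 and 66784910, the sodium channel gene cluster. The log2 fold changes of the 2 cluster genes not given above were -0.20 ± 0.11 (SE) for Scn2a and -0.64 ± 0.31 (SE) for Scn7a, with adjusted p of 0.501 and 0.466 by limma-trend. The level of Scn7a was 6.78 CPM for WT replicate 3 but 2.11 to 2.97 CPM elsewhere, so 1 library stood far above the others in the gene with the largest difference of the family. Scn8a on chromosome 15 had a log2 fold change of -0.05 ± 0.07 (SE), with an adjusted p of 0.788 by limma-trend.

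Among the genes of beta subunits, Scn2b (beta2) was at 66.0 CPM per kb (58.0 to 74.2), Scn4b (beta4, which promotes resurgent current) at 41.8 (28.5 to 52.6) and Scn3b (beta3) at 14.0 (11.9 to 16.6), with no overlap between neighbours in this order. All 4 tested beta genes lay below 0 (3 with either other scaling), with a median log2 fold change of -0.133, and Scn3b had an unadjusted p of at most 0.05, against 67.7% of all genes below 0 and 9.29% lower at that p. With either other scaling, and with the transcript length correction, 0 beta genes had such a p. Scn3b (chromosome 9, 40269216 to 40291618, plus strand) was at 69.0, 57 and 60.8 CPM in WT against 53.7, 59.3 and 49.4 CPM in the labelled Rag1-/- libraries. The groups overlapped, since Rag1-/- replicate 2 lay above WT replicate 2. The log2 fold change of Scn3b was -0.20 ± 0.09 (SE; adjusted p = 0.423 by limma-trend, exact permutation p = 0.2), and it was -0.12 without WT replicate 1 and -0.22 without WT replicate 3. Its unadjusted p was at most 0.05 only in the fits without WT replicate 2 and without Rag1-/- replicate 2 among those that left out 1 library, and it was over 0.05 with the other scalings, without the trend, with the replicate block and with the Xist term. Scn4b varied most within groups, at 211, 262 and 181 CPM in WT and 223, 142 and 232 CPM in the labelled Rag1-/- libraries. Its lowest values came from WT replicate 3 and Rag1-/- replicate 2, the library with the highest and the library with the second highest summed cerebellar markers (399 and 164 CPM).

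Among the 10 calcium channel alpha1 genes, Cacna1a and Cacna1g were highest per length. Cacna1a (Cav2.1, the P/Q-type channel of most fast synapses and of Purkinje cells) was at 12.3 CPM per kb (10.9 to 15.9) and Cacna1g (Cav3.1) at 11.8 (9.83 to 14.9), which overlapped, followed by Cacna1i (Cav3.3) at 8.11 and Cacna1b (Cav2.2, N-type) at 6.45. Cacna1h (Cav3.2), Cacna1c (Cav1.2), Cacna1e (Cav2.3, R-type) and Cacna1d (Cav1.3) lay between 2.34 and 4.34 CPM per kb. Cacna1s, the channel of skeletal muscle, and Cacna1f, of photoreceptors, were at 0.190 and 0.0192 CPM per kb, in libraries where 10 skeletal muscle markers summed to 5.61 to 11.2 CPM and 6 photoreceptor and pineal markers to 0.578 to 2.03 CPM. Of the 10 genes 8 lay below 0 and 4 had an unadjusted p of at most 0.05, all lower; the median log2 fold change was -0.200. Among all genes with transcripts over 8000 bases, 88.6% lay below 0 and 29.7% were lower at that p, and after the transcript length correction 7 of the 10 lay below 0 and 0 had such a p. The summed level of the 10 alpha1 genes was 524, 467 and 603 CPM in WT and 419, 494 and 459 CPM in the labelled Rag1-/- libraries, a ratio of means of 0.861, and the highest labelled Rag1-/- library lay above the lowest WT library. By class the ratio was 0.849 (L-type), 0.844 (P/Q-, N- and R-type) and 0.882 (T-type). Without WT replicate 3, the highest library, these were 0.887, 0.929 and 0.930.

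The P/Q-, N- and R-type genes, which serve transmitter release, all lay below 0. Cacna1b (chromosome 2, 24603889 to 24763152, minus strand) was at 64.6, 63.4 and 73.7 CPM in WT against 56.9, 61.2 and 56.9 CPM in the labelled Rag1-/- libraries. Every labelled Rag1-/- library lay below every WT library, by the smallest margin between Rag1-/- replicate 2 and WT replicate 2. The log2 fold change was -0.20 ± 0.06 (SE; adjusted p = 0.359 by limma-trend), the exact permutation p was 0.1, the smallest that 3 against 3 allow, and the log2 fold change was -0.13 without WT replicate 3. Cacna1e (chromosome 1, 154392519 to 154725920, minus strand) had the longest transcript of the family (14921 bases) and was at 52.9, 45.0 and 66.9 CPM in WT against 35.4, 47.3 and 42.0 CPM in the labelled Rag1-/- libraries. The groups overlapped between WT replicate 2 and Rag1-/- replicate 2. Its log2 fold change was -0.39 ± 0.15 (SE; adjusted p = 0.385 by limma-trend, exact permutation p = 0.2), and it was -0.24 without WT replicate 3. The unadjusted p of Cacna1e was over 0.05 without WT replicate 3, without Rag1-/- replicate 1 or 3 and without the trend in limma. Cacna1a (chromosome 8, 84415364 to 84640249, plus strand) was at 96.1, 88.5 and 126 CPM in WT against 86.2, 92.5 and 93.5 CPM in the labelled Rag1-/- libraries. The high WT mean came from replicate 3, the library with the most cerebellar marker RNA. For Cacna1a the log2 fold change was -0.18 ± 0.11 (SE; adjusted p = 0.565 by limma-trend, exact permutation p = 0.4), and it was -0.28 without WT replicate 2 and -0.02 without WT replicate 3. In the fit with a term for Xist it was -0.48, with an adjusted p under 0.05, but there WT replicate 3 was the only WT library with low Xist.

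T-type channels open near the resting potential and support rebound bursting. Cacna1i (chromosome 15, 80287238 to 80398292, plus strand) had the smallest p of the family and was at 87.1, 80.0 and 88.6 CPM in WT against 68.6, 79.1 and 72.4 CPM in the labelled Rag1-/- libraries. The groups did not overlap, although WT replicate 2 and Rag1-/- replicate 2 lay within 1 CPM of each other. Its log2 fold change was -0.22 ± 0.06 (SE; adjusted p = 0.340 by limma-trend, exact permutation p = 0.1), and it was -0.19 without WT replicate 3. Cacna1g (chromosome 11, 94408391 to 94474198, minus strand) was at 109, 87.2 and 125 CPM in WT against 82.4, 105 and 87.6 CPM in the labelled Rag1-/- libraries. The groups overlapped widely, the log2 fold change was -0.22 ± 0.13 (SE; adjusted p = 0.542 by limma-trend, exact permutation p = 0.3), and it was -0.36 without WT replicate 2 and -0.10 without WT replicate 3. Cacna1h lay at 0.01 ± 0.08 (SE) on the same scale. The shares of the 3 T-type genes in their summed per-kb level were 49.2%, 34.0% and 16.8% in WT for Cacna1g, Cacna1i and Cacna1h and 47.9%, 33.0% and 19.2% in the libraries labelled Rag1-/-, and for Cacna1h the lowest of the latter libraries (18.1%) reached the highest WT library (18.1%).

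L-type channels couple depolarization to calcium-dependent transcription and pacemaking. Cacna1c (chromosome 6, 118587240 to 119196409, minus strand), at 3.81 CPM per kb the highest of this class, was at 57, 49.3 and 57.7 CPM in WT against 40.1, 49.6 and 47.5 CPM in the labelled Rag1-/- libraries. Only WT replicate 2 and Rag1-/- replicate 2 were out of order. The log2 fold change of Cacna1c was -0.26 ± 0.09 (SE; adjusted p = 0.372 by limma-trend, exact permutation p = 0.2), and it was -0.22 without WT replicate 3 and -0.17 without Rag1-/- replicate 1. Its unadjusted p was over 0.05 in both of these fits, without WT replicate 1 and without the trend in limma. Cacna1d had a log2 fold change of -0.20 ± 0.12 (SE), and Cacna1s and Cacna1f, both near or under 1 CPM, had -0.05 ± 0.33 and 0.17 ± 0.43 (SE), errors larger than the differences. Cacna1c made up 60.6% ± 1.95 (SD, n = 3) of the class per kb in WT and 59.2% ± 0.378 (SD, n = 3) in the libraries labelled Rag1-/-.

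**Figure D4:**
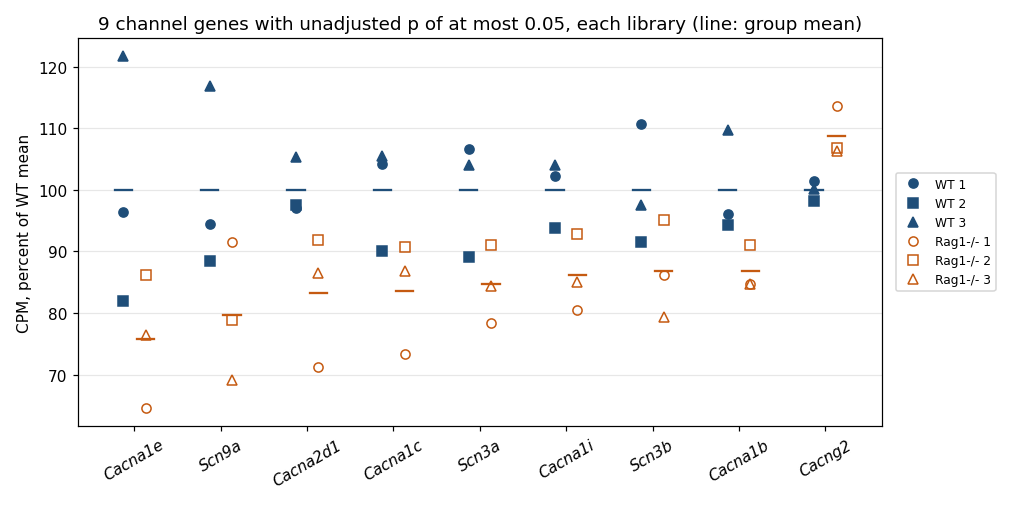
CPM of the 9 channel genes with a limma-trend p of at most 0.05 before adjustment in each library, as percent of the gene's WT mean (y axis, not starting at 0); short lines are group means. Replicate 2 of the libraries labelled Rag1-/- and WT replicate 2 lie close together for most of the 8 lower genes, and Cacng2 is the 1 gene with the opposite order.

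The alpha2delta proteins carry calcium channels to the cell surface, and the products of Cacna2d1 and Cacna2d2 bind gabapentin. Cacna2d2 was highest at 19.4 CPM per kb (18.3 to 21.7), Cacna2d3 and Cacna2d1 followed at 10.3 and 9.02 with overlapping ranges, and Cacna2d4 was at 1.47. Cacna2d1 (chromosome 5, 15934691 to 16374511, plus strand) was at 71.1, 71.4 and 77.1 CPM in WT against 52.1, 67.2 and 63.3 CPM in the labelled Rag1-/- libraries. All 3 of the latter lay below all WT libraries, and replicate 1 lay farthest below. The log2 fold change was -0.27 ± 0.09 (SE; adjusted p = 0.359 by limma-trend, exact permutation p = 0.1), -0.24 without WT replicate 3 and -0.17 without Rag1-/- replicate 1. Cacna2d2 (chromosome 9, 107399880 to 107529343, plus strand) was at 116, 108 and 126 CPM in WT against 106, 112 and 107 CPM in the labelled Rag1-/- libraries. These overlapped at WT replicate 2, and the log2 fold change was -0.10 ± 0.06 (SE; adjusted p = 0.513 by limma-trend, exact permutation p = 0.2) and -0.05 without WT replicate 3. Cacna2d3 and Cacna2d4 had log2 fold changes of -0.11 ± 0.06 and 0.14 ± 0.14 (SE).

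The cytoplasmic beta subunits bind the alpha1 subunit and keep it from degradation. Their summed level was 302, 256 and 281 CPM in WT and 266, 284 and 271 CPM in the labelled Rag1-/- libraries, a ratio of means of 0.979 and a difference within the spread of the replicates. Cacnb3 (chromosome 15, 98632328 to 98644536, plus strand) was highest at 24.1 CPM per kb. It was at 76.8, 47.6 and 68.4 CPM in WT against 67.9, 71.1 and 63.8 CPM in the labelled Rag1-/- libraries. WT replicate 2 was the low library here, the log2 fold change was 0.10 ± 0.15 (SE; adjusted p = 0.816 by limma-trend, exact permutation p = 0.9), and without that library it was -0.10. Cacnb1, Cacnb4 and Cacnb2, at 15.5, 15.0 and 8.82 CPM per kb, had log2 fold changes of -0.08 ± 0.05, -0.05 ± 0.05 and -0.09 ± 0.06 (SE), and 0 of the 4 beta genes had an unadjusted p of at most 0.05.

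The gamma genes were the class with a median above 0, at 0.022 on the log2 scale, with single values from -0.059 to 0.122. Their summed level was 213, 198 and 211 CPM in WT and 219, 213 and 208 CPM in the labelled Rag1-/- libraries, and overlapped. Cacng7 was highest at 28.0 CPM per kb (26.6 to 29.9), and Cacng2, Cacng8, Cacng5, Cacng3 and Cacng4 ran from 11.2 down to 5.25. The ranges of Cacng2 and Cacng8 overlapped, as did those of Cacng3 and Cacng4. Cacng2 (chromosome 15, 77993623 to 78119280, minus strand) encodes stargazin, the TARP that carries AMPA receptors to synapses. It was at 59.8, 57.8 and 59.0 CPM in WT against 66.9, 62.9 and 62.6 CPM in the labelled Rag1-/- libraries. Every labelled Rag1-/- library lay above every WT library, the only channel gene with this order. The log2 fold change of Cacng2 was 0.12 ± 0.04 (SE; adjusted p = 0.376 by limma-trend, exact permutation p = 0.1), and it was 0.12 without WT replicate 3 and 0.09 without Rag1-/- replicate 1. The unadjusted p of Cacng2 was over 0.05 without WT replicate 2, without Rag1-/- replicate 1, without the trend in limma and with the Xist term. Cacng7 (chromosome 7, 3336585 to 3366948, plus strand), also a TARP gene, was at 62.8, 58.9 and 61.8 CPM in WT against 66.0, 60.5 and 61.5 CPM in the labelled Rag1-/- libraries. It overlapped, with a log2 fold change of 0.03 ± 0.05 (SE; adjusted p = 0.813 by limma-trend, exact permutation p = 0.6).

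The sequences just before the start sites of the 4 channel genes whose groups did not overlap are shown so that their base composition can be compared. Each is the 250 bases before the RefSeq start (GRCm38.p6), which equals the deposited start, read 5′ to 3′ on the gene's strand. Capitals mark GGGCGG on either strand (written CCGCCC on the other), the GC box, and CANNTG, the E-box, which reads alike on both strands; no match of one overlapped a match of the other.
Cacna2d1, chr5:15934441-15934690, plus strand: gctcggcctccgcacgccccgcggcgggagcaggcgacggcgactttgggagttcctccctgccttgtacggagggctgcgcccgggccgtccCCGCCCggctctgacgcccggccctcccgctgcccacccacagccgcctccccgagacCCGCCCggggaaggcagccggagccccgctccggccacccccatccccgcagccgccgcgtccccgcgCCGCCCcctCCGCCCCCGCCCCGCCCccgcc
Cacna1b, chr2:24763153-24763402, minus strand: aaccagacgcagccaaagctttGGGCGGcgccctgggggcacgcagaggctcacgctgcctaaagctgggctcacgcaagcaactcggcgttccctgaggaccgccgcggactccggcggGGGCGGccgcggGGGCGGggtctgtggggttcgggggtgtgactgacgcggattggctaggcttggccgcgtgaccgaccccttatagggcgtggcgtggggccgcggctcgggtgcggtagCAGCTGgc
Cacna1i, chr15:80286988-80287237, plus strand: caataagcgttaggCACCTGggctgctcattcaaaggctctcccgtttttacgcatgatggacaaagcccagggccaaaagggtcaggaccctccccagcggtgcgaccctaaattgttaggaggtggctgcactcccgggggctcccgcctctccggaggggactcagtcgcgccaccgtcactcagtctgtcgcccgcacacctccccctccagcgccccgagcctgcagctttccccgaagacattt
Cacng2, chr15:78119281-78119530, minus strand: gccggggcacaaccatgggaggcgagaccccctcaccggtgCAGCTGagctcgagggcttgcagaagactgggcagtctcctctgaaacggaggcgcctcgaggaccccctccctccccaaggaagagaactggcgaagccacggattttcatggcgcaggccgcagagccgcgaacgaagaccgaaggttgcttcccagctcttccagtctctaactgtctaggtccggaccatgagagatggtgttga
The window of Cacna2d1 held 6 GC box matches and no E-box, at 82.4% G and C with 36 CpG dinucleotides, and that of Cacna1b held 3 GC box matches and 1 E-box, at 72.0% with 29 CpG. The windows of Cacna1i and Cacng2, of which the former was lower and the latter higher in the libraries labelled Rag1-/-, were alike in composition, at 62.4% and 62.0%, each with 16 CpG, 1 E-box match and no GC box match. Among the 23 tested channel genes with a window at the deposited start, 9 (39.1%) held GGGCGG and 17 (73.9%) held CANNTG, against 32.7% and 66.2% of all 32851 windows. A match is a description of the letters and not a site of binding.

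Other genes that bind, place or regulate these channels were read from a list of 40, of which 39 were tested (Cabp2 was under 0.1 CPM). Of these 27 lay below 0, with a median log2 fold change of -0.036; 5 were lower and 1 was higher at an unadjusted p of at most 0.05, and 0 had an adjusted p under 0.05. These counts are to be read against all tested genes, of which 67.7% lay below 0, 9.29% were lower and 2.27% higher at that p. The lower ones were Nalcn (the sodium leak channel) at -0.15, its partner Unc80 at -0.14, Bsn (Bassoon, of the presynaptic active zone) at -0.16, Camk2d (a calcium/calmodulin-dependent kinase) at -0.15 and Nrcam (a cell adhesion molecule of nodes of Ranvier) at -0.09. The higher was Nfasc (neurofascin, which gathers sodium channels at the axon initial segment and node), at 0.13. Their summed level, 8480 to 8754 CPM in WT, was 8484 to 8685 CPM in the labelled Rag1-/- libraries, and so overlapped.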

How the data were processed

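The authors aligned the reads to mm10 (RefSeq Transcripts 83) with STAR 2.5.3a in Partek Flow and deposited 1 CPM value per gene and library, scaled to library size with 0.0001 added. Between 86.4% and 87.5% of the low values in each library were whole multiples of 1 read, within 0.1 read. The rest were not, so counts were not recovered for all genes and no count test was run. Depth was estimated from these steps. The end coordinate is 1 base before the deposited stop. Genes averaging 0.1 CPM or more were tested as log2(CPM + 0.1), a scale that makes changes of low genes look smaller, with limma-trend (limma 3.58.1, R 4.3.3), over all 6 libraries with no covariate, and with exact two-sided permutation tests of the CPM. The scripts were tested on simulated data. Values were printed in full for channel genes whose p before adjustment was at most 0.05 and, with an exception, for the highest of each class per kb; others were named by class or with values only, chosen after their values were seen where singled out. Counts and class sums hold all tested channel genes, of which 2 are not reported singly here. The channel genes, the partner list and the marker lists were chosen with earlier results of these data known. Marker lists were neuron, astrocyte, oligodendrocyte, oligodendrocyte precursor, microglia, endothelial and mural, skeletal muscle, heart muscle, cerebellar, sensory ganglion, photoreceptor and pineal, and pituitary. Alternatives were other pseudocounts, filters, scalings and variance models, a replicate block, a term for Xist, a transcript length correction, and leaving out each library.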

Additional observations from a re-analysis of the deposited data

How the results depend on the processing

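Between 7 and 9 channel genes had p of at most 0.05 before adjustment with another pseudocount, filter or scaling, against 9 as reported. In these fits 3.82% to 9.94% of all tested genes were lower at that p, against 9.29% as reported. The count was 13 with a term for Xist (Xist over 100 CPM or not), 4 without the trend in limma and 2 with the transcript length correction, which was chosen after seeing the data. Of these 13, 4 and 1 were lower, beside 12.3%, 7.67% and 3.71% of all tested genes. Leaving out 1 library gave 4 to 16: 16 without WT replicate 2, 5 without WT replicate 3, 4 without Rag1-/- replicate 1 and 5 without Rag1-/- replicate 3. Of these 16, 4, 4 and 4 were lower, beside 9.73%, 9.31%, 5.18% and 7.53% of all tested genes. Cacna1b, Cacna1i and Cacna2d1 kept such a p in each of the 6 fits that left out 1 library. The count with an adjusted p under 0.05 was 2 with the Xist term (Cacna1a and Scn7a, smallest adjusted p 0.0321 by limma-trend), where WT replicate 3 alone stands for WT with low Xist, and 0 otherwise. With that term 134 of all tested genes passed this threshold, against 8 without it in the fit reported. Of the 15 genes with values in full, those that turned sign were Scn1a (0.0942) and Cacnb3 (-0.0178) with the Xist term, and, leaving out 1 library, Cacnb3 (-0.10 to 0.24) and Cacng7 (-0.0045 to 0.0589); the Xist term also moved Cacna1a to -0.48, Cacna1g to -0.45, Cacna2d2 to -0.21, Cacna1e to -0.69, Scn9a to -0.55 and Cacna1b to -0.34. The transcript length correction moved Cacna1i to -0.11, Cacna1b to -0.10, Scn3a to -0.13, Cacna1c to -0.14, Cacna2d2 to -0.03, Cacna1a to -0.09 and Cacna1g to -0.12. The cause was not tested. The other scalings moved the median of all genes from -0.051 to -0.006 and 0.002, and that of the channel genes from -0.107 to -0.061 and -0.071. Same-numbered libraries did not deviate together (correlations 0.0926, -0.22 and -0.0183). These values show no sign of pairing by number, but they cannot exclude a shared batch, since other differences between libraries enter them too. The fit with a replicate block gave 7 channel genes at that unadjusted p and 0 with an adjusted p under 0.05. Of the 7, 6 were lower, beside 6.59% of all tested genes. With 3 libraries per group and values in CPM, differences near the size of the standard errors, and those of Scn11a and Cacna1f near the floor, were not detectable.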

Other observations

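Further marker lists were read for the same libraries. The summed level of 7 astrocyte markers was 4051 to 4314 CPM in WT and 4348 to 4469 CPM in the libraries labelled Rag1-/-. Of these 7 genes 5 lay above 0 and 2 below, and 1 was higher at an unadjusted p of at most 0.05. For 4 oligodendrocyte precursor markers the sum was 638 to 696 CPM and 737 to 765 CPM. Gpr17 (log2 fold change 0.29) and Olig1 (0.17) were higher at that p, while Pdgfra (-0.05) and Cspg4 (-0.14) lay below 0. Of all tested genes 2.27% were higher at that p. For 6 microglia markers the sum was 179 to 194 CPM and 176 to 190 CPM, and for 6 endothelial and mural markers 142 to 170 CPM and 151 to 168 CPM, with 0 genes at that p in both lists. Sensory ganglion markers summed to 18.7 to 28.4 CPM in WT and 19.3 to 33.7 CPM in the libraries labelled Rag1-/-, beside Scn9a, Scn10a and Scn11a, and Mrgprd was absent from the table. Heart muscle markers summed to 2.94 to 3.92 CPM and 3.51 to 6.75 CPM. None of these genes had an adjusted p under 0.05 by limma-trend.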
